A study of Mus musculus with 16 samples.

Results

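The comparison set H3K27ac in early Bcl11b-deleted T helper 2 (Th2) cells beside H3K27ac in late undeleted Th2 cells. It rests on 4 ChIP-seq libraries, early KO 1 and 2 and late WT 1 and 2, of the 16 libraries of the study, identified by their titles. The early KO cells were CD4 T cells of Bcl11b[fl/fl]-CreERT2 mice on a C57BL/6 background, grown for 4 days under Th2 conditions with 4-hydroxytamoxifen (4-OHT), which switches on the Cre recombinase. The late WT cells carried the same floxed alleles and the same CreERT2, never met 4-OHT, and went through Th2 culture for 4 days, rested for 1 day with IL-2, and went back into Th2 culture for another 4 days. The groups thus differ in Bcl11b, in 4-OHT and in time in culture, and those 3 differences cannot be told apart from these 4 libraries alone. Early WT cells (4 days without 4-OHT) and late KO cells (4-OHT only in the second culture), 2 H3K27ac libraries each, and 8 DNase-seq libraries of the same 4 groups, also 2 each, were read beside them. According to the labels the starting cells were naive, yet a CD4+CD44high sort is also listed. The labels do not say whether replicates came from separate mice or cultures, so p-values reflect how much these libraries vary, and that variation may be technical.

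Bcl11b is a zinc finger transcription factor that T cell precursors need to commit to the T lineage and that mature T cells keep. GATA3 drives the Th2 fate, and the title of the series names Bcl11b as a partner of GATA3 that holds back the Th1 programme and limits the Th2 one. H3K27ac, acetylation of lysine 27 on the tail of histone H3, lies over active promoters and enhancers, and broad stretches of it often cover genes that define a cell type. During Th2 culture a T cell shuts regulatory regions of its naive state and opens those of the effector state, so the mark can change over that time.

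Each library came as a list of islands, which are stretches of the mouse build mm9 that the authors' caller joined from enriched 200-bp windows. The lists held 32112 and 28126 islands in early KO cells and 26611 and 30676 in late WT cells, and they covered 104.8 and 108.2 Mb in early KO cells and 102.1 and 102.8 Mb in late WT cells. Mean covered length was 106.5 ± 2.4 Mb in early KO and 102.4 ± 0.5 Mb in late WT cells (SD, n = 2 each, exact two-sided permutation p = 0.333, the smallest p that 2 against 2 allows). Island width had a median of 2400 and 2800 bp in early KO and 2800 and 2400 bp in late WT libraries, so each group held 1 list of more and narrower islands and 1 of fewer and wider ones. The lists give no read counts, so sequencing depth is unknown, and an absent island means that the list holds none there. The cells were measured in bulk, so fewer cells with a mark and less of the mark per cell cannot be told apart. No gene annotation of mm9 was used here, and regions are named by position, so the deleted part of Bcl11b and the markers of Th2 or other cells were not checked.

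Early KO cells shared about as much of their H3K27ac with late WT cells as with early WT cells, and more with late KO cells. Among 200-bp windows with an island in at least 1 of 2 lists, early KO and late WT libraries shared 63.7%, 64.8%, 63.5% and 63.8% in the 4 possible pairs, a mean of 64.0% ± 0.6 (SD over pairs). Early KO and early WT libraries shared 62.5% ± 1.2, with pairs from 60.9% to 63.9%, so the ranges of the 2 sets of pairs overlapped. Early KO and late KO libraries shared 68.7% ± 0.6, and late WT and early WT libraries 60.6% ± 0.7. The early KO replicates shared 76.1% and the late WT replicates 76.5%, more than any of these pairs, whereas the early WT replicates shared 70.3%. Late WT and late KO libraries shared 71.0% ± 0.4, with pairs from 70.7% to 71.6%, all above the early WT replicates. Early WT and late KO libraries shared 58.0% ± 0.8. The order turned when each list was cut to the islands with the upper 50% of scores. Early KO libraries then shared 64.8% with late WT and 66.0% with early WT. The early WT replicates shared 75.0% and the late WT replicates 77.3% after that cut. In whole lists early WT replicates were less alike than late WT replicates, which limits a comparison of shares with these groups. Pairs that use the same library are not independent, and no test was made of these shares.

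**Figure D1:**
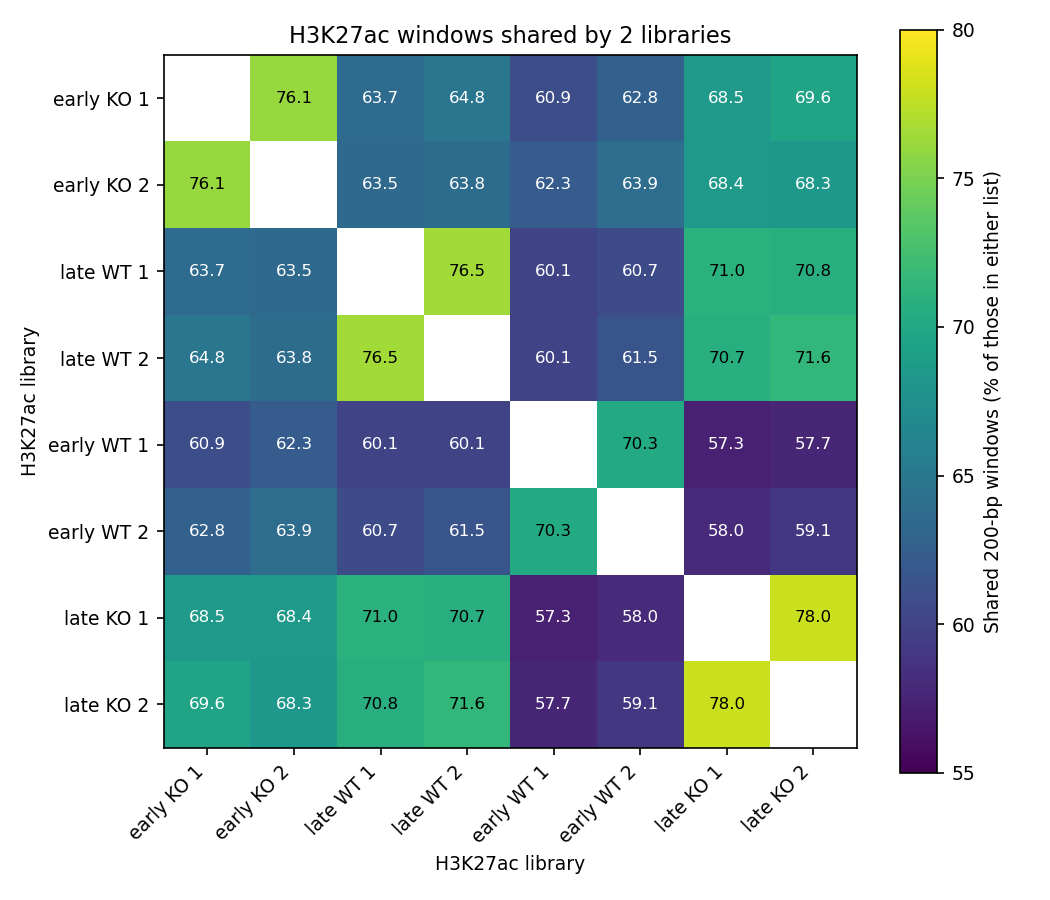
Percent of 200-bp windows covered in either of 2 H3K27ac lists that both lists cover, for every pair of the 8 libraries (rows and columns, early KO first). The 4 cells of early KO with late WT hold 63.5% to 64.8%, below the early KO replicates at 76.1% and the late WT replicates at 76.5%.

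In windows chosen to separate late WT from early WT lists, early KO libraries read between these groups, an order that the choice favours. Windows were chosen that 1 late WT list covered and 1 early WT list did not, and were then read in libraries that had not chosen them, for all 4 choices of a late WT and an early WT list. Each choice gave 117521 to 123492 windows, or 23.5 to 24.7 Mb. Early KO libraries covered 41.8% of them (41.1% to 43.0%), the late WT library that had been left out 66.1% (65.5% to 66.7%), and the early WT library that had been left out 24.7% (23.1% to 26.9%). Both early KO libraries lay between these left-out libraries in every choice. The choice of windows puts the left-out late WT and early WT libraries near the ends of the range. A place between them therefore does not by itself show a shift towards late WT. On the scale from the left-out early WT to the left-out late WT library, early KO cells stood on average at 41.2% of the way (37.0% to 44.9%). Late KO libraries covered 62.8% of the same windows (56.7% to 67.9%).

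The reverse windows, covered in 1 early WT list and not in 1 late WT list, numbered 122564 to 143575 per choice. Early KO libraries covered 37.4% of them (31.5% to 43.0%), against 20.4% (19.1% to 22.7%) in the left-out late WT and 54.0% (49.5% to 58.0%) in the left-out early WT library. Early KO cells thus stood at 49.5% of the way towards late WT among windows that late WT lacked (48.3% to 50.5% over the 4 choices). Late KO libraries covered 22.7% of these windows (18.5% to 26.3%). As before, the choice of windows favours a place between the WT groups. The early KO libraries differed here, since replicate 1 covered 31.5% to 38.4% and replicate 2 covered 37.0% to 43.0% of the windows. With lists of equal length the positions were 32.9% for windows of late WT and 53.2% for windows of early WT. The share that any new library holds of such windows depends on how many islands its list has, and these shares carry no test.

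**Figure D2:**
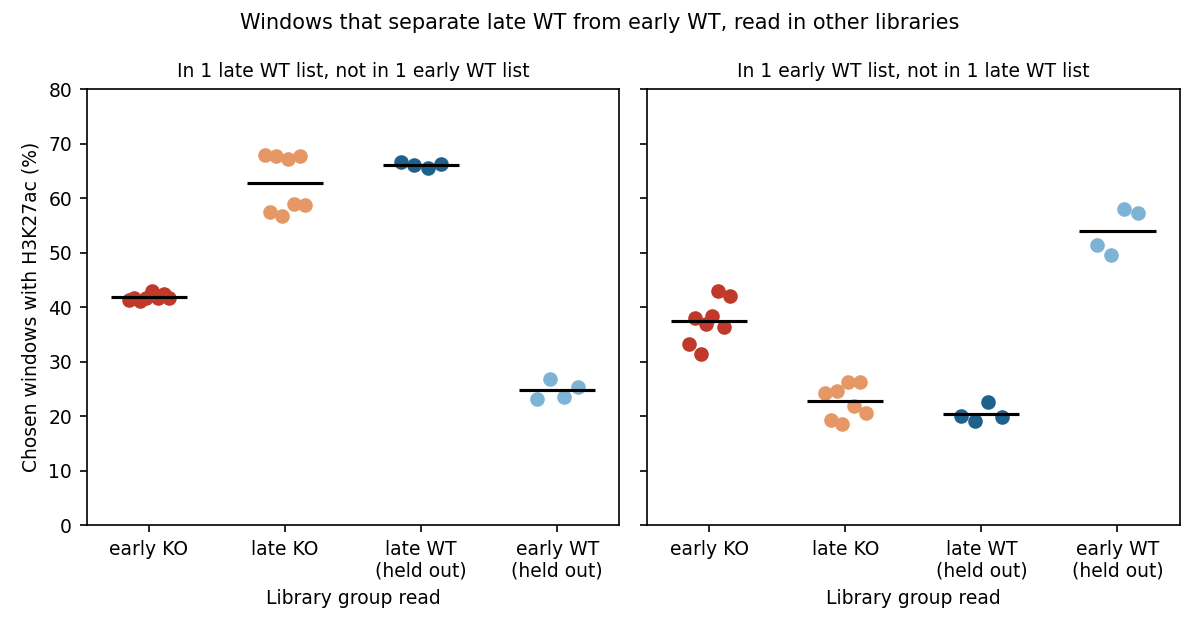
Percent of chosen 200-bp windows that carry H3K27ac in libraries that did not choose them, with windows of late WT on the left and windows of early WT on the right. Points are library readings over the 4 choices and lines are means; early KO averages 41.8% on the left and 37.4% on the right, between held-out late WT (66.1% and 20.4%) and held-out early WT (24.7% and 54.0%).

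Islands of the 4 lists that overlapped or touched merged into 34144 regions, and most were held by early KO and late WT cells alike. All 4 lists held 21625 regions (63.3%), with a median width of 3800 bp. Both early KO lists and neither late WT list held 3000 regions (8.8%), and both late WT lists and neither early KO list held 1958 (5.7%). The regions that set the groups apart were narrower, with a median width of 2400 bp in each set, and they ranked low in their own lists, at a median score percentile of 20.4 for the early KO set and 18.6 for the late WT set, against 61.0 for regions in all 4 lists. A region in all 4 lists lay within 10 kb of 38.6% of the early KO regions and of 47.4% of the late WT regions. The balance of the sets moved with the lists, because lists cut to equal length gave 2651 early KO and 2573 late WT regions. Without early KO replicate 2 the early KO set held 5262 regions, and the late WT set held 3019 without early KO replicate 1 and 4013 without late WT replicate 1. Leaving out a library also loosens the rule, since a set then asks for the presence, or the absence, of an island in 1 library of that group.

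The early KO region that ranked highest was a broad domain on chromosome 11 at 52073801 to 52100200. Islands covered 25.4 and 22.4 kb of its 26.4 kb in early KO and none in either late WT library. Late KO libraries covered 2.2 and 2.6 kb and early WT libraries 20.4 and 20.0 kb, so the domain was broad in both early groups and nearly gone in both late groups. DNase islands covered 11.4 and 16.0 kb of it in early KO and 1.4 and 1.0 kb in late WT cells. The second region, on chromosome 6 at 99317201 to 99341200, followed the same order, with 24.0 and 23.4 kb in early KO and none in late WT, and with 2.0 and 1.6 kb in late KO beside 14.2 and 19.4 kb in early WT cells. The next 2 behaved differently. On chromosome 13 at 113329001 to 113335400 islands covered 6.2 and 5.6 kb in early KO and 5.6 and 5.0 kb in late KO cells, and none in late WT or early WT cells. On chromosome 19 at 25108201 to 25114200 the early KO libraries had 6.0 and 5.4 kb and the late KO libraries 6.0 and 5.8 kb, again with none in the 4 WT libraries. Both regions were thus held by all 4 KO libraries and by no WT library. At each of these 2 regions both early KO DNase libraries had an island, of 1.2 and 2.0 kb on chromosome 13 and of 0.6 and 1.0 kb on chromosome 19, and no WT DNase library had one. Late KO DNase libraries had none on chromosome 13, and 2.2 and 0.6 kb on chromosome 19. The fifth, on chromosome 18 at 5801601 to 5811000, had 8.6 and 8.2 kb in early KO and 0 in late WT, with 5.8 and 5.0 kb in late KO beside 2.4 and 0 kb in early WT libraries.

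The 5 highest ranking late WT regions were all held by both late KO libraries as well. On chromosome 17 at 81050601 to 81058400, the first of them, early KO libraries had no island and late WT libraries 7.8 and 7.4 kb. Late KO libraries had 7.4 and 6.8 kb there and early WT libraries 3.0 and 0 kb. On chromosome X at 46416801 to 46424400 no early KO library had an island, while late WT had 7.6 and 6.4 kb, and late KO 6.4 and 4.4 kb beside 0 in early WT. The regions on chromosome 6 at 51054801 to 51060200, chromosome 4 at 11719801 to 11724800 and chromosome 5 at 93050801 to 93058400 were covered over 4.8 to 7.6 kb in late WT and 3.0 to 3.2 kb in late KO libraries. None of the 4 early libraries had an island in them. These 5 regions ranked at score percentiles of 72.0 to 87.8 within the late WT lists.

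The other 4 H3K27ac libraries, which had no part in choosing the regions, sorted the early KO set into several patterns. Of the 3000 early KO regions, 764 (25.5%) were held by both late KO and neither early WT list, so both KO groups had them and neither WT group did. Another 507 (16.9%) were held by both early WT and neither late KO list. No other H3K27ac library held 817 of them (27.2%), and 162 (5.4%) were in all 4 of the other lists, missing in late WT cells alone. The late WT set was weighted otherwise. Of its 1958 regions, 630 (32.2%) were held by both late KO and neither early WT list, so both late groups had them and neither early group did. Both early WT and neither late KO list held 198 (10.1%), which both WT groups had and neither KO group did. No other library held 495 (25.3%), and all 4 of the others held 111 (5.7%). The remaining regions of each set were in some other mix of lists, such as 1 library of a group. How often these patterns occur among all 34144 regions was not counted, so the shares do not show what is particular to either set.

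Coverage of fixed 10-kb bins gave the same comparison with a test across the genome. The covered length of a bin entered as log2(kb + 0.5), and all 4 H3K27ac groups were fitted together with limma. Of 39126 bins, 5678 (14.5%) differed between early KO and late WT cells at a Benjamini-Hochberg adjusted p under 0.05. Early KO was higher in 3035 bins (7.76%) and lower in 2643 (6.76%). The same fit called 5711 bins (14.6%) between early KO and early WT cells, with early KO higher in 3588 (9.17%) and lower in 2123 (5.43%). Between late WT and early WT cells it called 6381 (16.3%), with late WT higher in 3733 (9.54%) and lower in 2648 (6.77%). The difference between these counts was not tested. In most called bins the group with less had no island at all: 2194 (72.3%) of the higher bins had none in late WT, and 1402 (53.0%) of the lower bins had none in early KO. The higher bins held 3.07 kb on average in early KO and 0.62 kb in late WT cells, and the lower bins 1.34 kb in early KO, against 3.9 kb in late WT cells. Bins covered in all 4 libraries differed by a median log2 of 0.95 where early KO was higher (759 bins) and -0.95 where it was lower (1133 bins). The median over all 39126 bins was -0.08, a shift that the centring of the libraries sets. The higher bins numbered 1978 without early KO replicate 1 and 1978 without early KO replicate 2, and the lower bins 1739 without late WT replicate 1 and 1556 without late WT replicate 2. After a cut to the upper 50% of scores in each list 2850 bins differed, with early KO higher in 1550 of them.

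The bins with the largest excess in early KO held no island in late WT cells, and in 7 of the 8 the early WT libraries had much of the mark too. On chromosome 6 the neighbouring bins at 99320001 and 99330001 were covered over all 10 kb in both early KO libraries and over 0 in both late WT libraries (limma adjusted p = 0.000492 for each). The first had 2.0 and 1.6 kb in late KO and 8.6 and 9.4 kb in early WT, and the second 0 in late KO and 5.4 and 6.6 kb in early WT. On chromosome 11 the bins at 52080001 and 52090001, inside the broad domain described above, held 8.4 to 10 kb in early KO and 0 in late WT libraries (adjusted p = 0.000492 for each). Bins on chromosome 8 at 131060001, chromosome 5 at 124460001 and chromosome 15 at 59960001 had 8.8 to 10 kb in early KO, 0 in late WT, 0 to 1.8 kb in late KO and 4.2 to 10 kb in early WT libraries. All 3 had the same adjusted p of 0.000492. The exception was the bin on chromosome 15 at 97990001, where early KO libraries had 10 and 9.2 kb and late WT libraries 0 (adjusted p = 0.00775). Late KO libraries had 5.2 and 3.8 kb there and early WT libraries 0 and 1.8 kb, and the call was lost without late WT replicate 1 (limma adjusted p = 0.0557, with 0.00178 to 0.0557 over all alternatives). With the upper 50% of each list by score the bin on chromosome 5 did not pass, although its log2 of 4.30 was close to the 4.25 of whole lists (both depend on the pseudocount). DNase islands in the bin at 52080001 covered 4.0 and 6.4 kb in early KO and 0 in late WT cells, with 0 in late KO and 6.2 and 6.8 kb in early WT.

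The bins with the largest deficit in early KO held no island in either early KO library. On chromosome 9 the bin at 123960001 had 0 in early KO and 10 and 9.2 kb in late WT libraries (adjusted p = 0.000492), and late KO had 9.2 and 8.2 kb where early WT had 0. A further 2 bins of chromosome 9, at 124020001 and 69510001, followed it, with 0 in early KO and 7.8 to 9.4 kb in late WT libraries. Late KO libraries held 9.0 to 10 kb in these bins and early WT libraries 0. Bins on chromosome 2 at 179930001, chromosome 5 at 91110001 and chromosome X at 46420001 also held 0 in all 4 early libraries, with 7.6 to 9.8 kb in late WT and 6.2 to 10 kb in late KO. In 6 of the 8 bins, then, all 4 late libraries had the mark and all 4 early libraries lacked it. The bin on chromosome 7 at 97300001 was different. Early KO libraries had 0 there and early WT libraries 4.4 and 4.0 kb, while late KO had 8.8 and 6.6 kb and late WT 8.4 and 8.6 kb. On chromosome 6 at 88690001 early KO libraries had 0, late WT 9.0 and 9.4 kb, late KO 3.2 and 3.0 kb and early WT 1.8 and 5.4 kb (adjusted p = 0.001). Adjusted p was 0.000492 for the other 7 bins of this direction. The bins at 123960001, 124020001, 179930001, 88690001, 91110001 and 97300001 held no DNase island in any of the 8 DNase libraries. In the bin at 46420001 only late WT replicate 2 had DNase islands, over 1.4 kb. The bin at 69510001 had 0 and 2.8 kb in early KO and 0.8 and 3.2 kb in late WT DNase libraries. It had 0.6 kb in each early WT and 0 in the late KO DNase libraries. With the upper 50% of each list by score the bin on chromosome 2 had no island left in late WT, with a log2 of -0.04 in place of -4.28. The bin on chromosome 7 kept a log2 of -3.35, against -4.25 with whole lists, and did not pass (these log2 values depend on the pseudocount).

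**Figure D3:**
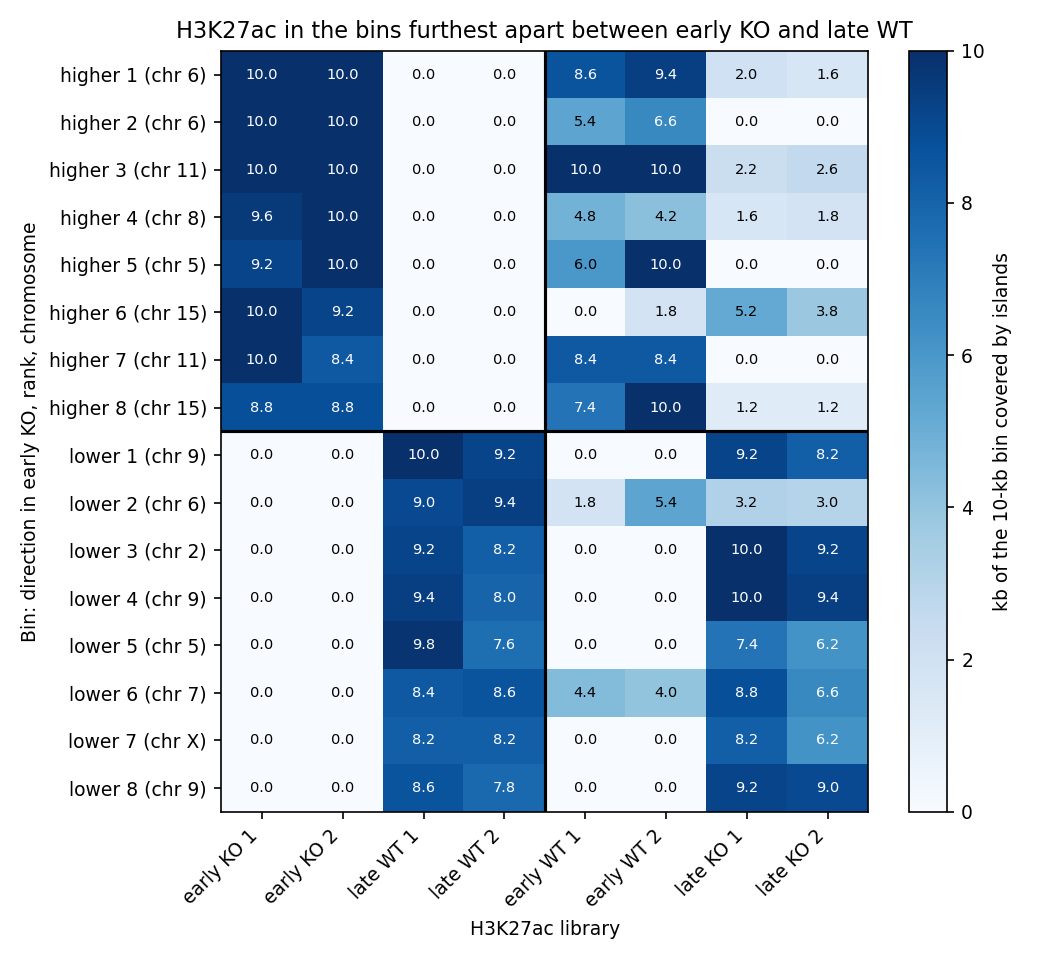
Kb of each 10-kb bin covered by H3K27ac islands in the 8 libraries (columns), for the 8 bins with the largest excess and the 8 with the largest deficit in early KO against late WT (rows, in rank order). Every cell of early KO holds at least 8.4 kb in the upper rows and 0 in the lower rows, while early WT holds at least 4.2 kb in 7 of the 8 upper rows and late KO at least 3.0 kb in the 8 lower rows.

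Where all 4 libraries had some H3K27ac, a difference could be given on the log2(kb + 0.5) scale, although its size still depended on the pseudocount. The bin on chromosome 7 at 139980001 held 9.0 and 9.4 kb in early KO and 0.6 and 0.4 kb in late WT libraries, a log2 difference of 3.20 ± 0.13 (SE, limma adjusted p = 0.000492). Late KO held 5.2 and 5.6 kb and early WT 5.4 and 5.6 kb, so early KO was the fullest group there and late WT the emptiest. On chromosome 1 at 157060001 early KO libraries held 4.6 and 7.0 kb and late WT libraries 0.2 kb each (log2 3.06 ± 0.19, adjusted p = 0.000492), with 4.6 and 4.4 kb in late KO and 0.6 kb in each early WT library. On chromosome 5 at 66300001 they held 7.6 and 8.6 kb in early KO and 0.4 and 0.6 kb in late WT (log2 3.03 ± 0.16, adjusted p = 0.000492), with 0.6 kb in each late KO and 7.0 and 7.2 kb in the early WT libraries. These 3 bins show 3 orders of the groups: early KO above all others, both KO groups high, and both early groups high. On chromosome 2 at 60210001 the values were 5.4 and 5.8 kb in early KO and 0.4 and 0.2 kb in late WT libraries (log2 2.86 ± 0.35, adjusted p = 0.00288). Late KO held 1.8 and 1.4 kb there and early WT 1.4 and 0.4 kb. With a 2-kb pseudocount the log2 differences of the bins in this paragraph were 2.11, 1.75, 1.96 and 1.67, in the order given.

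Among the lower bins covered in all 4 libraries, the bin on chromosome 2 at 101660001 held 0.2 and 0.4 kb in early KO and 6.2 and 8.4 kb in late WT (log2 -3.36 ± 0.40, SE, limma adjusted p = 0.00235). Late KO had 6.8 and 3.4 kb and early WT 0.8 and 0.2 kb there. On chromosome 1 at 40440001 early KO libraries held 0.4 and 0.2 kb and late WT libraries 6.6 kb each (log2 -3.24 ± 0.19, adjusted p = 0.000492), beside 5.8 and 5.2 kb in late KO and 0.8 and 0.6 kb in early WT. In both bins every late library held at least 3.4 kb and every early library at most 0.8 kb. The bin on chromosome 14 at 67650001 had the reverse for the other libraries, with 0.2 and 0.6 kb in early KO and 9.4 and 5.8 kb in late WT (log2 -3.25 ± 0.53, adjusted p = 0.0097), and 0.6 and 1.8 kb in late KO beside 8.6 and 4.0 kb in early WT. Its call was lost without early KO replicate 1 (limma adjusted p = 0.0694) and without late WT replicate 1 (0.0813), and adjusted p ranged from 0.00389 to 0.466 over all alternatives. On chromosome 2 at 153180001 the values were 0.4 kb in each early KO and 7.6 and 8.2 kb in the late WT libraries (log2 -3.30 ± 0.47, adjusted p = 0.00522). Late KO held 3.0 and 0.6 kb there and early WT 2.4 and 3.2 kb. With a 2-kb pseudocount the log2 differences of the bins in this paragraph were -2.06, -1.96, -2.04 and -2.1, in the order given. With the upper 50% of each list by score the named bins at 157060001, 60210001, 153180001 and 67650001 did not pass.

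The contrast of late KO with early WT cells uses the 4 H3K27ac libraries that early KO against late WT leaves out. A bin with the same sign in both contrasts is higher, or lower, in both KO groups than in the WT groups they are set against, and a bin with opposite signs is higher in both early or in both late groups. In late KO against early WT cells 8725 of 39126 bins (22.3%) differed, of which 5127 (13.1%) were higher and 3598 (9.2%) lower (limma, adjusted p under 0.05). Of the 3035 bins higher in early KO than in late WT, 902 (29.7%) were also higher in late KO than in early WT and 720 (23.7%) were lower. Of the 2643 bins lower in early KO than in late WT, 1082 (40.9%) were higher in late KO than in early WT and 286 (10.8%) were lower. Over all 39126 bins these shares were 13.1% higher and 9.2% lower, so the 10.8% lay near the share of all bins. The second contrast made no call in 1413 (46.6%) of the higher and 1275 (48.2%) of the lower bins. Where it made one, bins higher in early KO were divided between those shared by the KO groups and those shared by the early groups. Bins lower in early KO were there mostly shared by the late groups. Both contrasts came from 1 fit with a common estimate of the spread per bin. Separate fits of 4 libraries each gave 822 and 640 of the higher and 875 and 215 of the lower bins. Across all 39126 bins the differences correlated at -0.11 (Pearson) and -0.09 (Spearman), where bins are neighbours on chromosomes and not independent.

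**Figure D4:**
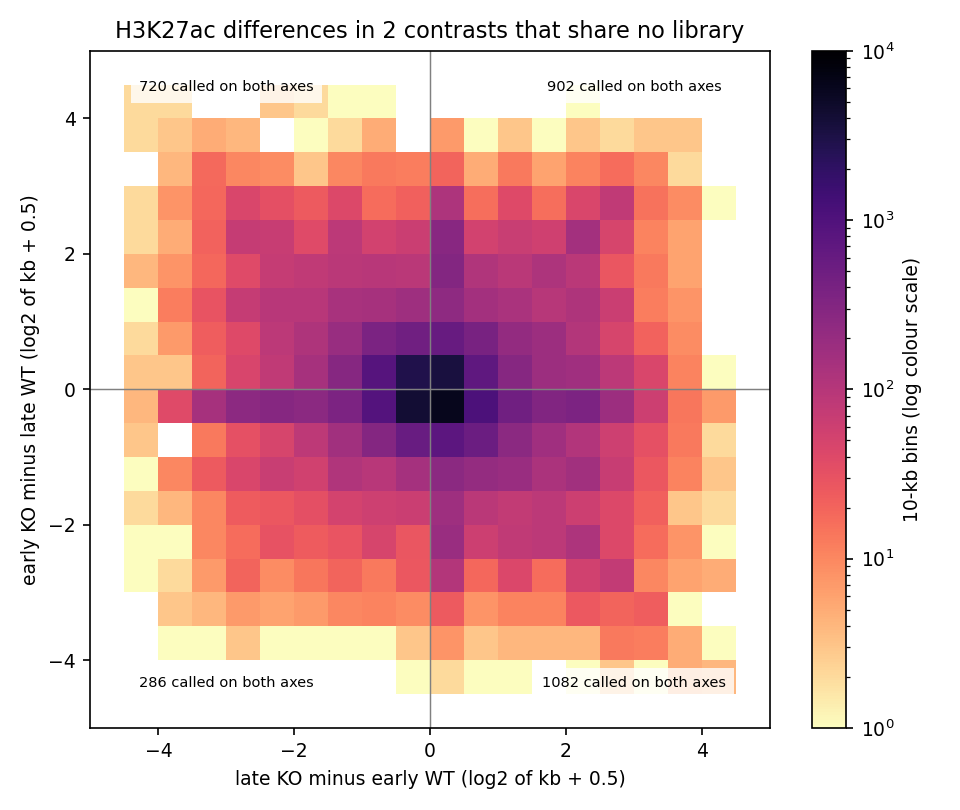
Two-way histogram of 39126 bins by their H3K27ac difference in late KO minus early WT (x axis) and early KO minus late WT (y axis), in log2 of kb + 0.5, with the number of bins on a log colour scale. The numbers of bins called on both axes are printed in the corners, 902 and 286 with equal signs and 720 and 1082 with opposite signs.

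Among bins higher in both KO groups, the clearest lay on chromosome 7 at 151970001, with 6.4 kb in each early KO and 0 in both late WT libraries, and 6.8 and 6.4 kb in late KO beside 0 in early WT. The bins on chromosome 7 at 106730001 (6.2 and 6.6 kb in early KO), chromosome 8 at 126810001 (6.6 and 6.2 kb) and chromosome 7 at 52090001 (5.6 and 5.0 kb) likewise held 5.4 to 7.0 kb in late KO and no island in any WT library. All 4 bins passed in both contrasts (limma adjusted p = 0.000492 for early KO against late WT and 0.000215 for late KO against early WT). DNase islands lay in the bin at 151970001 in all 4 KO DNase libraries (2.0, 3.6, 3.6 and 2.6 kb) and in no WT one. At 126810001 the DNase lists did not divide by genotype, with 0 and 3.0 kb in early KO and 2.4 and 0 kb in late WT, and the early KO islands of that bin all fell away with the upper 50% of each list by score, where the bin at 52090001 on chromosome 7 was not tested.

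Of the bins higher in both early groups, those on chromosome 11 at 52090001 and chromosome 5 at 124460001 are described above. The next were on chromosome 11 at 99020001, with 7.6 and 9.2 kb in early KO and 0 in late WT, and 0 in late KO beside 6.8 and 7.0 kb in early WT, and on chromosome 9 at 59760001. The bin at 59760001 had 6.4 and 8.0 kb in early KO and 0 in late WT, and 0 in late KO beside 9.2 and 8.8 kb in early WT. Both lost their call with the upper 50% of each list by score, which left the second without islands in early KO. The bins that stood out in both late groups were the 3 on chromosome 9 and that on chromosome 2 at 179930001, given above.

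Among bins lower in both KO groups, that on chromosome 3 at 95570001 had 0 in early KO and 7.4 and 3.6 kb in late WT (limma adjusted p = 0.00123), and 0 in late KO beside 4.2 and 7.2 kb in early WT (adjusted p = 0.000917). Bins on chromosome 10 at 77800001, chromosome 14 at 44730001 and chromosome 12 at 73040001 also had no island in any KO library, with 3.8 to 6.2 kb in late WT and 3.2 to 5.4 kb in early WT libraries. They passed in both contrasts, with adjusted p of 0.000492 to 0.000529 in early KO against late WT. Bins of this kind were the fewest of the 4 combinations. With the upper 50% of each list by score none of these 4 bins kept its call: the bin on chromosome 3 did not pass, and the other 3 had too few islands left to be tested.

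Stretches of neighbouring bins differed together, more of them in the direction of late WT. Where 3 or more called bins of the same sign lay side by side they were joined into a run. There were 56 runs with 190 of the higher bins (6.3%) and 103 runs with 348 of the lower bins (13.2%). Higher bins held 3.07 kb on average in early KO, and lower bins 3.9 kb in late WT. A wide island can cross bin borders, and the difference in the number of runs was not tested. The longest runs that were higher spanned 70 kb. On chromosome 6 from 99320001 to 99390000 islands covered 51.8 and 52.6 kb in early KO and 2.6 kb in each late WT library, with 6.6 and 7.4 kb in late KO and 25.6 and 28.2 kb in early WT. On chromosome 8 from 131020001 to 131090000 they covered 35.8 and 39.4 kb in early KO and 0 in late WT, with 3.0 and 2.8 kb in late KO and 24.4 and 26.6 kb in early WT. Both stretches were acetylated in the early groups, and further in early KO than in early WT libraries. The 60 kb of chromosome 1 from 87830001 to 87890000 had 29.4 and 33.4 kb in early KO and 12.2 and 10.6 kb in late WT. There late KO libraries held 24.6 and 24.2 kb and early WT libraries 14.4 and 13.8 kb, so both KO groups lay above both WT groups. On chromosome 4 from 32450001 to 32500000 coverage was 26.2 and 29.6 kb in early KO and 11.6 kb in each late WT library. Late KO libraries held 10.4 and 9.6 kb in that stretch and early WT libraries 17.4 and 19.4 kb.

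The longest runs that were lower in early KO had more of the mark in late KO than in early KO and early WT cells. On chromosome 9 from 123850001 to 123920000 early KO libraries had 10.6 and 11.8 kb and late WT libraries 42.4 and 48.2 kb. Late KO libraries had 43.4 and 41.8 kb there and early WT libraries 11.4 and 9.0 kb, so early KO stood with early WT. On chromosome 7 from 148160001 to 148230000 early KO libraries had 25.4 and 24.8 kb and late WT libraries 53.8 and 52.0 kb. Late KO libraries had 49.4 and 50.4 kb in that stretch and early WT libraries 16.0 and 18.4 kb, and early KO lay between early WT and late WT without overlap. On chromosome 11 from 53170001 to 53230000 early KO libraries had 0 and 0.6 kb and late WT libraries 39.4 and 29.0 kb, with 27.6 and 16.8 kb in late KO and 1.8 and 0 kb in early WT. On chromosome 9 from 51960001 to 52020000 the early KO libraries held 9.0 and 8.4 kb and the late WT libraries 37.0 and 33.8 kb, with 36.6 and 28.6 kb in late KO and 6.2 and 5.6 kb in early WT. Early KO libraries had slightly more than early WT libraries in this last stretch, and again far less than both late groups.

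DNase-seq, which marks open chromatin and was made in separate libraries, divided early KO from late WT as the H3K27ac sets did. Of the 3000 early KO regions, 32.2% and 58.9% held a DNase island in the early KO DNase libraries, against 13.0% and 23.4% in the late WT ones. Of the 1958 late WT regions, 7.6% and 23.6% held one in early KO and 33.7% and 51.5% in late WT. Early WT DNase libraries had one in 36.3% and 41.0% of the early KO regions. They had one in 31.6% and 37.3% of the late WT regions, so these ranges overlapped. Late KO DNase libraries had one in 13.6% and 12.5% of the early KO and in 8.6% and 7.8% of the late WT regions. In regions of all 4 lists the shares were 72.5% and 87.1% in early KO and 79.6% and 88.4% in late WT. The DNase lists held 24286 and 37956 islands in early KO and 27416 and 36963 in late WT cells, so within each group the longer list gave the higher share. DNase islands in both early KO and neither late WT library were found in 469 (15.6%) of the early KO regions, and the reverse in 9 (0.3%). For the late WT regions these numbers were 1 (0.1%) and 284 (14.5%), and for regions in all 4 lists 217 (1.0%) and 421 (1.9%). None of the 4 DNase lists had an island in 1138 (37.9%) of the early KO and 884 (45.1%) of the late WT regions. These shares carry no test: an exact permutation test of 2 against 2 libraries cannot go below p = 0.333, and no model was fitted to them.

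Among the early KO regions, those also held by late KO were the most often open in early KO DNase lists. Of the 764 regions in both late KO and neither early WT list, 47.3% and 76.6% held a DNase island in early KO and 17.4% and 28.7% in late WT. Of the same regions 30.8% and 27.1% held one in late KO and 33.5% and 36.8% in early WT. Of the 507 regions in both early WT and neither late KO list, 21.9% and 44.6% did in early KO and 11.2% and 23.1% in late WT, and the early WT DNase libraries had one in 45.6% and 52.5%. For the 630 late WT regions shared with late KO and not early WT, 10.5% and 29.8% held a DNase island in early KO and 43.7% and 63.0% in late WT. Only 15.7% and 14.9% of them did in the late KO DNase libraries, whose lists were the shortest at 18812 and 17397 islands. In the early WT DNase libraries 29.7% and 34.0% did, although neither early WT list held H3K27ac there.

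**Figure D5:**
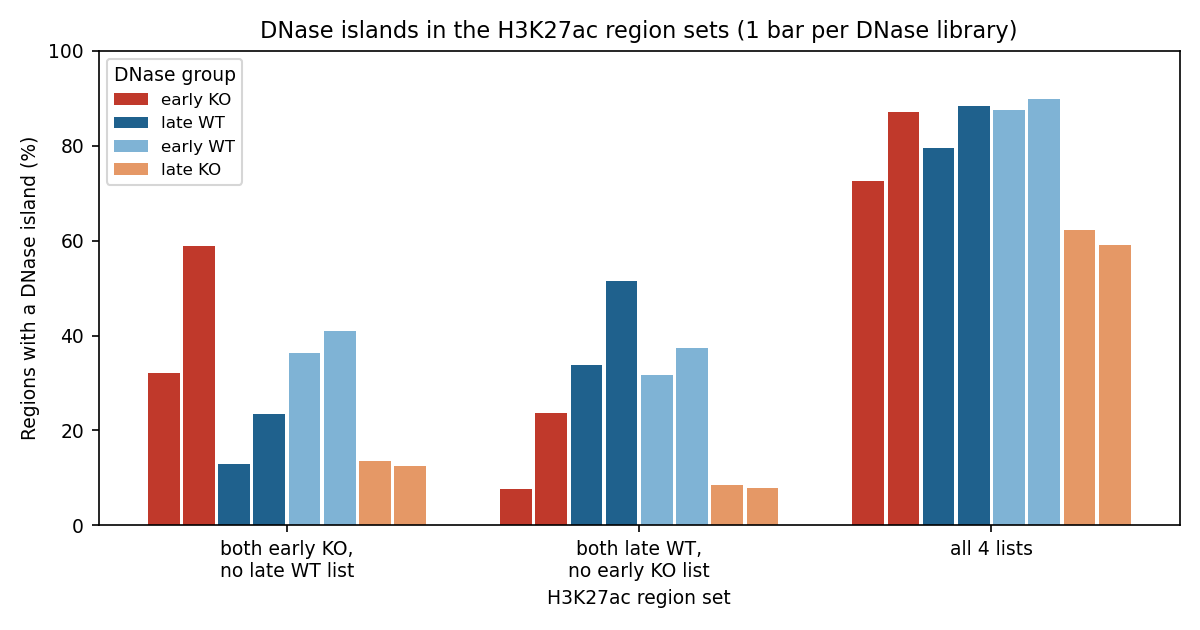
Percent of H3K27ac regions that hold a DNase island, with 1 bar per DNase library, for regions in both early KO and no late WT list, regions in both late WT and no early KO list, and regions in all 4 lists. In the first set early KO bars reach 32.2% and 58.9% and late WT bars 13.0% and 23.4%, and in the second set early KO bars reach 7.6% and 23.6% and late WT bars 33.7% and 51.5%. Early WT bars reach 36.3% and 41.0% in the first set and 31.6% and 37.3% in the second.

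Differences lay on all autosomes and on chromosome X. Early KO regions made up 6.3% (chromosome 11) to 11.3% (chromosome 16) of the regions of a chromosome, leaving out chromosome Y with its 13 regions, and late WT regions 4.6% (chromosomes 2 and 17) to 7.4% (chromosome 9). The share of bins higher in early KO was 10.1% on chromosome 16 and 5.6% on chromosome 11. The share of lower bins was 8.8% on chromosome 9, and 5.4% on chromosomes 4 and 15. No test was made between chromosomes.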

How the data were processed

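Per the submitters' processing notes, the tools were CASAVA 2.18, Bowtie2 and SICER 1.1, and the build was mm9. The deposited lists give each island's position and a score, the authors' own value, which here served to order and trim each list and nothing else. Lists were called per library; a control library and read numbers are not given in the sources used here. Groups came from the sample titles. Members, lists and tests were chosen with earlier results of these data known.

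Islands of the 4 lists that overlapped or touched were merged into regions. Bins covered in at least 2 of 8 H3K27ac libraries were fitted in limma 3.58.1 (R 4.3.3, lmFit, eBayes with a trend) on log2(kb + 0.5), after the median over bins with islands in every library was subtracted per library. A bin was called at a Benjamini-Hochberg adjusted p under 0.05. Where both libraries of a group are at 0 or at 10 kb, their spread is set by the floor or the ceiling, and the p-value leans on groups with more variation and on the prior that pools bins. Whether adjusted p-values hold for such bins, or where neighbouring bins are not independent, was not tested. In each set the 5 regions of highest mean score percentile are named. Named bins were the 8 with the largest difference each way, the 4 each way covered in all 4 libraries and the 4 of each combination with late KO minus early WT; named runs were the 4 longest each way. Other steps used pandas 2.3.3, numpy 2.4.6 and scipy 1.17.1 under Python 3.11.15.

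Replicate numbers were not used as pairs: same-numbered early KO and late WT libraries deviated from their groups with a correlation of -0.038 across bins. Alternatives were other centring, list lengths, score filter, pseudocount, bin filter, bin size, a replicate block, a fit of 4 libraries, other merging rules and each library left out.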

Additional observations from a re-analysis of the deposited data

How the results depend on the processing

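Counts of called bins stayed within 1.5 times of the reported ones with no centring, quantile normalization, equal list lengths, no bin filter, a 2-kb pseudocount and the 4 libraries alone. With the replicate number as a block 5238 bins differed, and this block changed the call of none of the 34 named bins. Larger bins of 50 kb gave 1805 higher, 1613 lower and 3418 in all. With the upper 50% of each list by score there were 1550 higher, 1300 lower and 2850 in all. That filter also gave 448 bins higher and 99 lower in both contrasts, 382 higher in early KO and lower in late KO, 630 the reverse, and 1123 early KO and 729 late WT regions. It turned the sign of the bins on chromosome 8 at 126810001 and chromosome 9 at 59760001, each to a log2 of -0.04, where all 4 libraries were left without islands and centring alone set the value. It left 4 of the 34 named bins untested. The bin on chromosome 11 at 99020001 did not pass under it, nor did the 8 named as such in the text. With single libraries left out, higher bins ranged from 1978 to 3464, lower bins from 1556 to 2721 and all called bins from 3918 to 6185. Regions ranged from 3107 to 5262 for early KO and from 2113 to 4013 for late WT. Shared windows of early KO with late WT, early KO with early WT and late WT with early WT were 64.8%, 66.0% and 62.9% under the score filter, and 75.8%, 74.4% and 74.0% in 10-kb bins. Early KO libraries held 39.3% of late WT windows with equal lists and 39.8% with the upper 50%, and 43.7% of early WT windows with the upper 50%. Positions on the way from early to late WT were 32.9% and 53.2% with equal lists, and 41.6% for early WT windows with the upper 50%. The causes of these shifts were not tested. Depth is unknown, which limits every statement about an absent island.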
